A study of Mus musculus with 15 samples.

Results

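The enzymes of haem synthesis were followed through 15 arrays of mouse fetal liver cells. The genes were taken by name, with the probe set of highest mean for each gene: Alas1, Alas2, Alad, Uros, Urod, Cpox, Ppox and Fech, which are 8 of the 19938 genes tested. All 8 were measured, each by 1 probe set, and none was left out by a filter on low values, since no such filter was used. The enzyme that acts between Alad and Uros in the pathway is not analysed here.

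Haem is the iron-containing ring that carries oxygen in haemoglobin. Its synthesis starts in the mitochondrion, where an ALAS enzyme joins glycine to succinyl-CoA, passes through the cytosol and ends back in the mitochondrion, where iron is put into the ring. Vertebrates have a housekeeping ALAS gene, Alas1, which in liver is held down by haem itself, and an erythroid one, Alas2, which lies on the X chromosome. Alas2 is switched on in red cell precursors, and its translation is held back when iron is short. The later enzymes come from genes used in both settings.

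The cells came from livers of FVB/NJ embryos at stage E14.5, counted in days of gestation, and were separated with magnetic beads against TER119, a surface antigen of maturing red cell precursors. Cells with TER119 were kept on the column and cells without it were what flowed past a depletion column, so the negative fraction held earlier precursors together with other cells that lack the antigen. The groups were Klf3 knockout (KO) TER119 positive (3 arrays), wild-type (WT) TER119 positive (4 arrays), Klf3 KO TER119 negative (4 arrays) and WT TER119 negative (4 arrays). Klf3 encodes a zinc finger repressor that binds CACCC boxes. The comparisons asked how the enzymes differ between the sorted fractions, and whether they differ between KO and WT within a fraction. The labels state neither which piece of Klf3 was deleted nor whether arrays came from separate embryos, so the spread behind each p-value is that of these samples and may in part be technical.

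All values below are the authors' log2 expression values, on which a difference of 1 is a doubling. Levels carry a standard deviation (SD), differences a standard error (SE), and adjusted p-values come from limma with Benjamini-Hochberg adjustment over all 19938 genes, with a threshold of 0.05. The number of arrays limits the precision. The Klf3 probe set did not separate the genotypes: it stood at 10.34 to 10.55 in KO-labelled and 9.94 to 10.50 in WT positive arrays, and at 8.02 to 8.74 in KO-labelled and 7.94 to 8.80 in WT negative arrays. The genotype is thus known only from the labels, hence the name KO-labelled. Slc4a1, the anion exchanger of the red cell membrane, stood at 13.19 or above on every positive array and at 8.82 or below on every negative array, and Kit, a receptor of early progenitors, lay at 6.87 or below on positive and 8.47 or above on negative arrays. Whether the sort left other cells in the positive fraction was not tested. In TER119 positive against TER119 negative arrays, 22.6% of all genes passed as higher in KO-labelled and 23.5% in WT cells. By the same measure, 20 of 20 hepatocyte-lineage genes were higher in both genotypes. The mean of that list was 11.26 to 11.71 in KO-labelled and 11.07 to 11.80 in WT positive arrays, and 5.62 to 7.10 in KO-labelled and 5.78 to 8.08 in WT negative arrays. Sex, read from the sex-linked genes, was 1 male and 3 female in KO-labelled negative arrays, against 4 male and 0 female in WT negative arrays. It was 1 male and 2 female in KO-labelled positive arrays, against 2 male and 2 female in WT positive arrays. Among the negative arrays, WT replicates 2 and 4 and KO-labelled replicate 4 stood apart from the other 5 on the first principal component, which held 44.6% of their variance.

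The stretch of 250 bases upstream of the gene start is shown for 3 of the genes: the pair of ALAS genes, which ran in opposite directions between the fractions, and Cpox, which holds both motifs searched. The sequences are from RefSeq on build GRCm38.p6, at chrX:150547167-150547416 on the plus strand for Alas2, chr9:106247955-106248204 on the minus strand for Alas1 and chr16:58669958-58670207 on the plus strand for Cpox. They are written 5′ to 3′ on the strand of the gene and end at the base before its start. Capitals mark matches on either strand to a GATA word (which is AGATAA, or else TGATAA, or else AGATAG, or else TGATAG), as bound by GATA factors, or to the word CACCC, the core of the box bound by the KLF family. All matches in these 3 sequences lie on the strand opposite to the gene, so that CACCC appears as GGGTG and AGATAA as TTATCT.
Alas2: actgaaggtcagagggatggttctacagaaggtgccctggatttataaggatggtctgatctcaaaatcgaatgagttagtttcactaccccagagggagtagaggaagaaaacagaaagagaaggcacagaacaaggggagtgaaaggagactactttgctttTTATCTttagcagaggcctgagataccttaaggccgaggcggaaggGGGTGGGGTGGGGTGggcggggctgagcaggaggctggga
Alas1: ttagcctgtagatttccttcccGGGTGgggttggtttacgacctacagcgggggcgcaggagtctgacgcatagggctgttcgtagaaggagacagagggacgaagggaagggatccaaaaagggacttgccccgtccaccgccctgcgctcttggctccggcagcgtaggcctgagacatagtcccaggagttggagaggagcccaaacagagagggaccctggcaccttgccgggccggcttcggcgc
Cpox: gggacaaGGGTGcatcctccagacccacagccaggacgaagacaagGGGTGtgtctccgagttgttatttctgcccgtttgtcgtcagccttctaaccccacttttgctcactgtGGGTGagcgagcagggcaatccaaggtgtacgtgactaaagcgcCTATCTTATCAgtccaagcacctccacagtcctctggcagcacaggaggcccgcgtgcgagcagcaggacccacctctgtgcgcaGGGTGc

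The Alas2 stretch held 1 GATA word, at positions -86 to -81 from the start, and 3 CACCC words that followed each other from -40 to -26. The Alas1 stretch held no GATA word and 1 CACCC word at -228. The Cpox stretch held a pair of GATA words at -91 and -86 that share 1 base, and 4 CACCC words at -243, -204, -135 and -6. Of the 8 genes, 7 had promoter entries that were searched, 10 entries in all. Of these 10 entries, 3 held a GATA word (those of Alas2 and Cpox and 1 of Uros) and 5 held CACCC (those of Alas1, Alas2 and Cpox and 1 of Alad). Among all 32851 promoter entries of the same length, 26.5% held a GATA word, 52.0% held CACCC and 11.8% held both. The shares of the 10 entries with a GATA word and with CACCC were thus near those of all promoters. The entries with both were those of Alas2 and Cpox, too few to set against 11.8%. The entries of Alas1 overlap each other, as do those of Alad, so the 10 are not all separate stretches. A match describes the letters and does not show that a factor binds there.

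Between the fractions, 7 of the 8 enzymes were higher and 1, Alas1, was lower in TER119 positive than in TER119 negative cells, in each genotype. The rises ran from 1.12 for Urod to 5.13 for Alas2 in KO-labelled arrays, and from 1.30 for Urod to 5.77 for Alas2 in WT arrays. All 8 passed the threshold in both genotypes, against 49% of all genes tested in KO-labelled arrays (22.6% higher and 26.5% lower) and 52.6% in WT arrays (23.5% higher and 29.1% lower). The median difference of the enzymes was 1.86 in KO-labelled and 1.90 in WT arrays, against -0.06 and -0.09 for all genes. In 7 genes every positive array lay above every negative array, and in Alas1 every positive array lay below every negative one. Of all genes, 25.2% were higher and 30.9% lower without overlap between the fractions in KO-labelled arrays, and 20.9% were higher and 24.7% lower in WT arrays. Array names were built differently for the 2 fractions, and any batch that fell along the same line and the fraction cannot be told apart. In such bulk samples, fewer cells of a type and less RNA per cell cannot be told apart either.

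**Figure D1:**
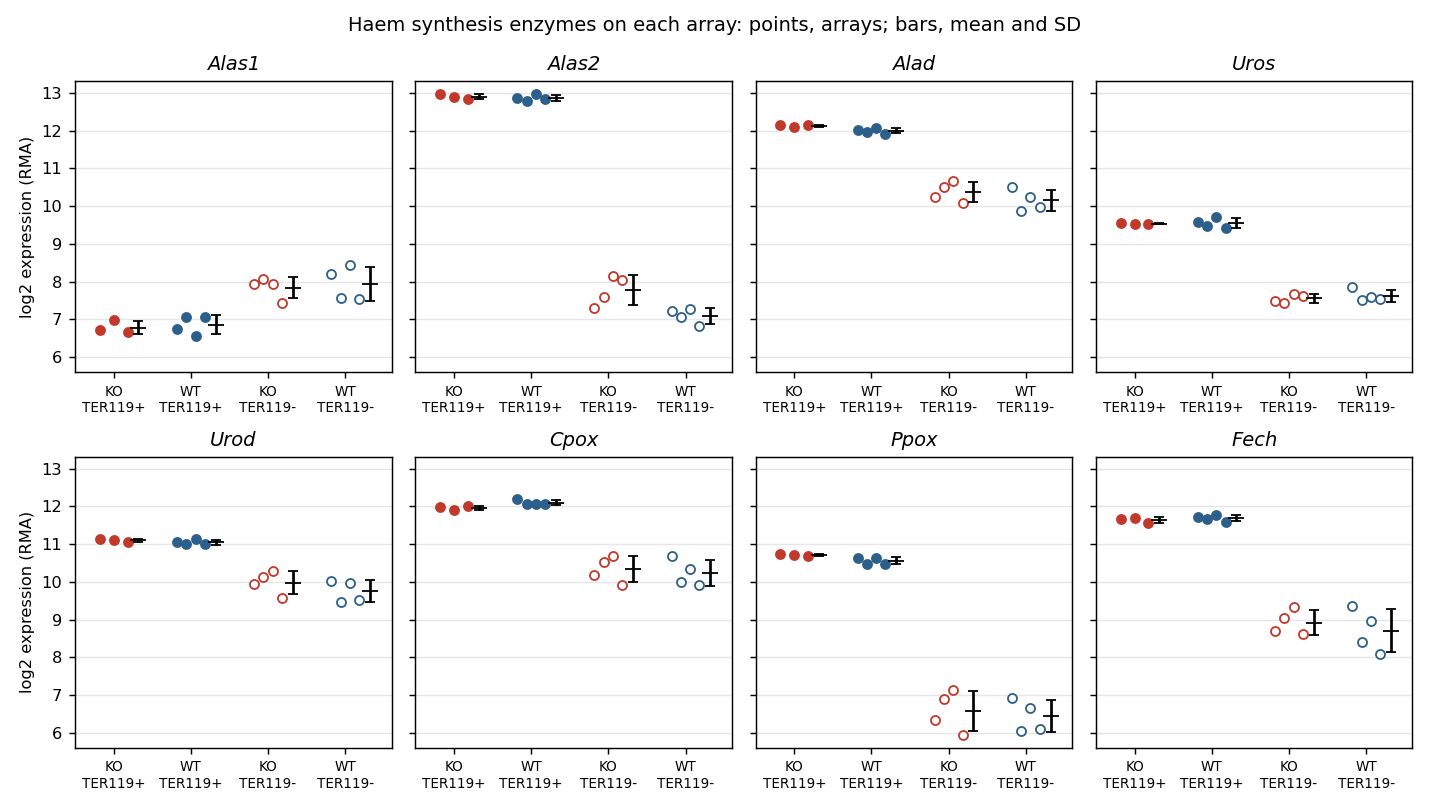
Log2 expression of each enzyme gene on each of the 15 arrays, in KO-labelled and WT TER119 positive and then KO-labelled and WT TER119 negative arrays; points are arrays and bars are the mean with the SD. Alas2 lies at 12.78 or above on all positive arrays and at 8.14 or below on all negative arrays, while Alas1 runs the other way.

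Alas2 encodes the erythroid enzyme of the first step and showed the widest separation. It stood at 12.96, 12.90 and 12.84 in KO-labelled positive arrays, at 12.86, 12.78, 12.96 and 12.84 in WT positive arrays, at 7.29, 7.60, 8.14 and 8.05 in KO-labelled negative arrays, and at 7.23, 7.07, 7.27 and 6.82 in WT negative arrays. The 7 positive arrays lay within 0.18 of each other, and the closest positive and negative arrays were 4.70 apart in KO-labelled and 5.51 apart in WT cells. The difference between fractions was 5.13 (SE 0.17, 35.0-fold, adjusted p = 6.3e-13) in KO-labelled cells. In WT cells it was 5.77 (SE 0.16, 54.4-fold, adjusted p = 6.5e-14). A larger difference in either direction was found for 0.231% of genes in KO-labelled and 0.0752% of genes in WT cells.

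Alas1, the housekeeping gene for the same step, was the exception. It stood at 6.71, 6.99 and 6.66 in KO-labelled positive arrays, at 6.76, 7.07, 6.57 and 7.06 in WT positive arrays, at 7.93, 8.06, 7.94 and 7.43 in KO-labelled negative arrays, and at 8.20, 7.57, 8.44 and 7.54 in WT negative arrays. The fractions did not overlap, but their nearest arrays were only 0.44 apart in KO-labelled and 0.47 apart in WT cells. The difference was -1.05 (SE 0.21, adjusted p = 0.00051) in KO-labelled and -1.07 (SE 0.20, adjusted p = 0.00021) in WT cells, about a 2.08-fold and a 2.1-fold lower level in the positive fraction. Alas1 is used in hepatocytes as well, and it was lower in the fraction in which the 20 hepatocyte-lineage genes were higher. Markers of other cells ran both ways. Of 14 macrophage markers, 12 were higher in KO-labelled and 13 in WT positive cells. Of 9 megakaryocyte markers, 2 were higher and 3 lower in KO-labelled, and 2 higher and 1 lower in WT positive cells. Of all genes, 22.6% were higher and 26.5% lower in KO-labelled, and 23.5% higher and 29.1% lower in WT positive cells. Of 12 neutrophil precursor markers, 12 were lower in positive cells of both genotypes, with list means of 5.37 to 5.94 in KO-labelled positive and 5.203 to 5.58 in WT positive arrays, and 10.11 to 10.63 in KO-labelled negative and 10.49 to 10.84 in WT negative arrays. Of 11 progenitor markers, 9 were lower in each genotype, with list means of 6.02 to 6.12 in KO-labelled positive and 5.999 to 6.12 in WT positive arrays, and 7.48 to 7.85 in KO-labelled negative and 7.45 to 7.88 in WT negative arrays. The part of these cell types in the level of Alas1 was not tested. The 2 genes for the first step thus held the largest rise and the only fall among the 8 enzymes.

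The enzymes of the cytosolic middle of the pathway rose by less than Alas2, Ppox and Fech. Alad joins pairs of aminolaevulinic acid molecules into porphobilinogen. It averaged 12.13 ± 0.02 in KO-labelled positive, 12.00 ± 0.07 in WT positive, 10.38 ± 0.26 in KO-labelled negative and 10.15 ± 0.29 in WT negative arrays (SD, n = 3, 4, 4 and 4). It was higher in positive cells by 1.75 (SE 0.15) in KO-labelled and by 1.84 (SE 0.14) in WT cells, with adjusted p = 4.3e-08 and 7.8e-09. Uros closes the tetrapyrrole ring into its natural isomer. Its levels were 9.53 to 9.54 in KO-labelled positive, 9.43 to 9.71 in WT positive, 7.43 to 7.68 in KO-labelled negative and 7.51 to 7.86 in WT negative arrays. The difference was 1.98 (SE 0.11) in KO-labelled and 1.93 (SE 0.10) in WT cells, with adjusted p = 1.8e-10 and 7.6e-11. Urod removes carboxyl groups from the ring and showed the smallest rise. It lay at 11.05 to 11.13 in KO-labelled positive, 10.99 to 11.13 in WT positive, 9.57 to 10.29 in KO-labelled negative and 9.46 to 10.02 in WT negative arrays. The rise was 1.12 (SE 0.16) in KO-labelled and 1.30 (SE 0.15) in WT cells, with adjusted p = 1.7e-05 and 1.3e-06. A larger difference than that of Urod in WT cells was found for 14.6% of all genes.

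Of the mitochondrial enzymes of the last steps, Ppox and Fech had the largest rises after Alas2, while that of Cpox was within the range of the cytosolic enzymes. Cpox converts coproporphyrinogen to protoporphyrinogen. It lay at 11.91 to 12.01 in KO-labelled positive, 12.05 to 12.20 in WT positive, 9.93 to 10.69 in KO-labelled negative and 9.92 to 10.68 in WT negative arrays. It was higher by 1.64 (SE 0.18) in KO-labelled and 1.87 (SE 0.17) in WT positive cells, with adjusted p = 8.3e-07 and 6.4e-08. Ppox oxidises protoporphyrinogen to protoporphyrin. It stood at 10.74, 10.70 and 10.69 in KO-labelled positive arrays, at 10.63, 10.47, 10.64 and 10.48 in WT positive arrays, at 6.35, 6.89, 7.14 and 5.96 in KO-labelled negative arrays, and at 6.94, 6.06, 6.65 and 6.11 in WT negative arrays. The nearest arrays of the fractions were 3.55 apart in KO-labelled and 3.54 apart in WT cells. Its difference was 4.12 in each genotype (SE 0.24 in KO-labelled, SE 0.22 in WT), the second largest of the pathway, with adjusted p = 4.4e-10 and 1.5e-10. Only 0.737% of genes in KO-labelled and 0.682% in WT cells had a larger difference. Fech, which inserts iron to make haem, stood at 11.65, 11.70 and 11.56 in KO-labelled positive arrays, at 11.72, 11.66, 11.77 and 11.59 in WT positive arrays, at 8.70, 9.05, 9.33 and 8.62 in KO-labelled negative arrays, and at 9.36, 8.40, 8.96 and 8.09 in WT negative arrays. Within each genotype the positive arrays were above the negative ones by at least 2.23. The difference was 2.71 (SE 0.23, 6.56-fold, adjusted p = 4.1e-08) in KO-labelled and 2.98 (SE 0.21, 7.88-fold, adjusted p = 4.7e-09) in WT cells.

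**Figure D2:**
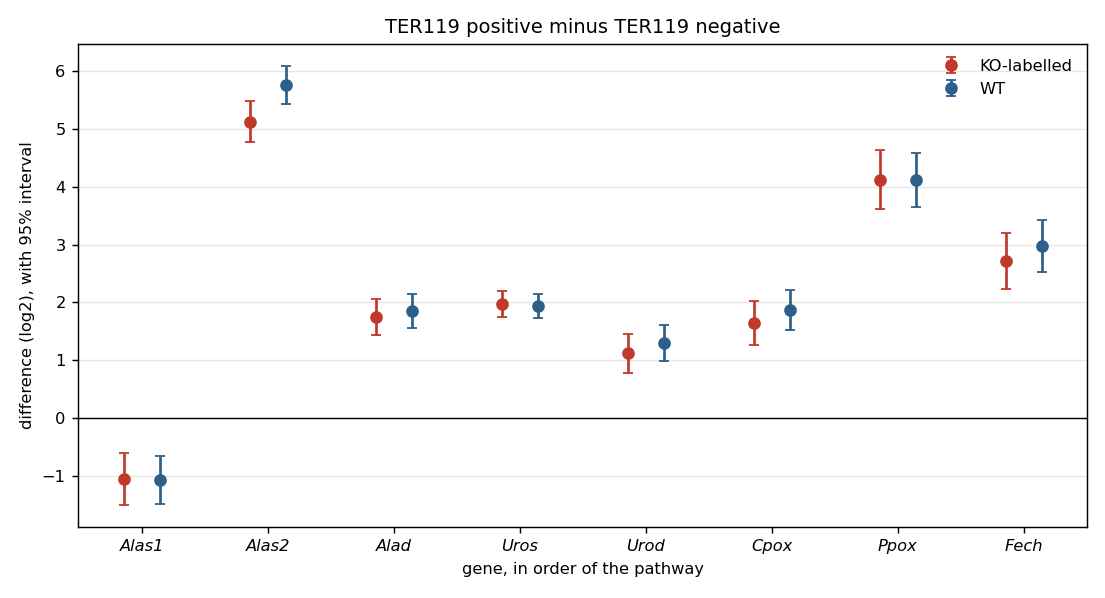
TER119 positive minus TER119 negative difference on the log2 scale for each enzyme, in pathway order, in KO-labelled (left point) and WT (right point) cells, with the 95% interval from the limma fit. The differences span -1.05 to 5.13 in KO-labelled and -1.07 to 5.77 in WT cells, with Alas2, Ppox and Fech highest and Alas1 below 0.

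In the order of levels across the groups, the 2 positive groups stood at the top for all genes but Alas1, for which the 2 negative groups did. Within each fraction the KO-labelled and WT means lay close together. The means differed by 0.15 or less between the positive groups and by 0.24 or less between the negative groups, except for Alas2 in the negative groups. None of these differences between neighbouring groups passed the threshold. The SDs of the enzymes were 0.01 to 0.24 in positive groups, with a median of 0.07. They were 0.11 to 0.57 in negative groups, with a median of 0.32.

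Genes that supply the pathway were examined through 24 measured genes for its substrates, transport and iron, of which 15 rose and 3 fell in KO-labelled, and 15 rose and 4 fell in WT positive cells. Their median difference was 1.25 in KO-labelled and 1.42 in WT cells, against -0.06 and -0.09 for all genes. Of all genes, 22.6% rose and 26.5% fell in KO-labelled, and 23.5% rose and 29.1% fell in WT cells. Abcb10, an inner mitochondrial membrane transporter that stabilises the iron importer of that membrane, rose by 4.09 in KO-labelled and 4.33 in WT cells (adjusted p = 4.3e-12 and 7.3e-13). Slc25a37 is that importer, known as mitoferrin-1, and rose by 3.85 in KO-labelled and 4.12 in WT cells (adjusted p = 1.7e-11 and 2.3e-12). Slc25a38 brings glycine into the mitochondrion for the ALAS step and rose by 3.84 in KO-labelled and 4.02 in WT cells (adjusted p = 3.3e-10 and 6.4e-11). Slc25a39, a mitochondrial glutathione carrier, rose by 4.06 in KO-labelled and 4.17 in WT cells. Glrx5, needed for iron-sulphur clusters, rose by 2.36 in KO-labelled and 2.33 in WT cells, and Abcg2, a porphyrin exporter, by 2.23 and 2.22. The members that fell included Sucla2 and Suclg2, subunits of the enzyme that handles succinyl-CoA, at -1.15 and -1.17 in KO-labelled and -0.86 and -1.29 in WT cells. Clpp, a mitochondrial protease subunit, fell by 0.67 in KO-labelled and 0.51 in WT cells, and the iron carrier Slc25a28 passed the threshold in WT cells, at -0.44, but not in KO-labelled cells, at -0.12. These 4 genes were named after their values were seen.

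Of 13 genes for haem sensing, export and breakdown, 8 rose and 4 fell in KO-labelled, and 8 rose and 5 fell in WT positive cells, with medians of 1.06 and 1.17. The shares of all genes were 22.6% higher and 26.5% lower in KO-labelled, and 23.5% higher and 29.1% lower in WT cells. Hmox1, the inducible haem oxygenase that opens the ring, stood at 10.85 in KO-labelled positive and 5.64 in KO-labelled negative arrays on average, a rise of 5.21 (SE 0.17, adjusted p = 7.9e-13). The WT averages were 10.58 in positive and 5.50 in negative arrays, a rise of 5.09 (SE 0.16, adjusted p = 3.2e-13). Slc48a1, which carries haem out of lysosomes, rose by 2.74 in KO-labelled and 2.67 in WT cells. The haem-sensing repressor gene Bach1 rose by 2.36 in KO-labelled and 2.32 in WT cells, and Eif2ak1, the kinase that slows translation when haem is short, by 2.09 and 2.24. Of those that fell, Nr1d1 averaged 4.86 in KO-labelled positive and 5.92 in KO-labelled negative arrays, and 4.98 and 5.75 in WT arrays. Flvcr1, in the same order, averaged 7.20 and 8.04, and 7.29 and 7.84 (named after its values were seen). Macrophages clear red cell material and express Hmox1 and Slc48a1. Of 14 macrophage markers, 12 were higher in KO-labelled and 13 in WT positive cells, with list means of 7.67 to 7.81 in KO-labelled positive and 7.74 to 8.02 in WT positive arrays, and 5.36 to 5.56 in KO-labelled negative and 5.43 to 5.64 in WT negative arrays. Their part in these rises was not tested.

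All 10 erythroid regulators of haem genes, Klf3 among them, passed the threshold in both genotypes, 9 higher and 1 lower, with medians of 1.65 in KO-labelled and 1.86 in WT cells. Of all genes, 49% passed in KO-labelled (22.6% higher) and 52.6% in WT cells (23.5% higher), with medians of -0.06 and -0.09. Tal1 and Lmo2, partners of GATA1 in an erythroid complex, rose by 2.44 and 1.86 in KO-labelled and by 2.78 and 1.89 in WT cells. Klf1, the erythroid activator of the KLF family, rose by 1.57 in KO-labelled and 1.84 in WT cells. Bcl11a, a repressor of globin genes, was the lower one, at -0.94 in KO-labelled and -0.71 in WT cells (named after its value was seen). Of 6 liver regulators of Alas1, 5 rose in each genotype, while Alas1 itself was lower. Of the 5, Ppargc1a, Nr1i2 and Foxo1 were dim in negative cells, below the array medians of 5.28 to 5.43. Their negative-array means were 4.63 to 4.93 in KO-labelled and 4.90 to 5.03 in WT arrays. With only genes of mean log2 6 or above, the count was 2 in each genotype. Hnf4a, a hepatocyte nuclear receptor, rose by 3.47 in KO-labelled and 3.19 in WT cells. Ppargc1a, a coactivator that raises Alas1 in fasted mouse liver, rose by 1.55 in KO-labelled and 1.18 in WT cells. Hnf4a is also a member of the hepatocyte-lineage list.

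**Figure D3:**
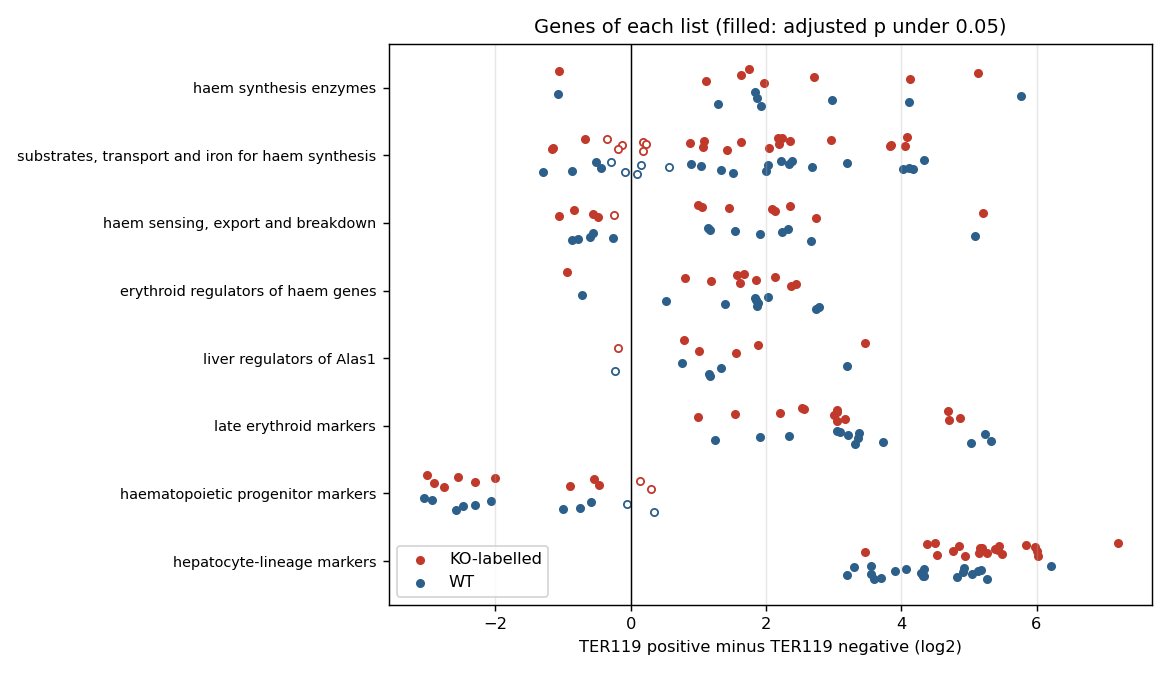
TER119 positive minus TER119 negative difference (log2, x axis) of every measured gene of each list, with KO-labelled points drawn above WT points; filled points passed an adjusted p of 0.05. The enzymes, their suppliers and the erythroid regulators lie mostly above 0, with medians of 1.86, 1.25 and 1.65 in KO-labelled and 1.90, 1.42 and 1.86 in WT cells, and the progenitor markers mostly below 0.

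The second comparison set KO-labelled against WT within TER119 positive cells. None of the 8 enzymes passed the threshold in limma, against 1.02% of all genes, and 0 of 8 had an unadjusted p under 0.05, against 5.33% of all genes. The differences lay between -0.13 for Cpox and 0.15 for Ppox, with a median of 0.01 against -0.01 for all genes, and the adjusted p was 0.9998 for each. Alas2 averaged 12.90 ± 0.06 in KO-labelled and 12.86 ± 0.08 in WT positive arrays, a difference of 0.04 (SE 0.17) with a 95% interval of -0.32 to 0.39. Each gene's SE rests on 1 spread shared by all 15 arrays, and the enzymes varied more in negative groups (median SD 0.32 against 0.07). The SEs, intervals and p-values in positive cells thus hold spread from the negative arrays. With only the positive arrays fitted, 0 of 8 passed the threshold too. A p that misses the threshold does not show that the genotypes are alike. The KO-labelled arrays all lay above the WT arrays for Alad and Ppox and all below them for Cpox, by differences of 0.13, 0.15 and -0.13. Of all genes, 5.29% were higher and 4.81% lower in KO-labelled arrays without overlap.

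None of the 24 supply genes, 13 haem handling genes, 10 erythroid regulators and 6 liver regulators passed the threshold in TER119 positive cells. The medians were 0.10, 0.07, -0.03 and 0.06, against -0.01 for all genes. Hscb, a cochaperone of iron-sulphur cluster assembly, was nearest among the supply genes at 0.35 (SE 0.09, adjusted p = 0.14). Ldb1, which bridges enhancers to erythroid promoters, stood at 10.24, 10.21 and 10.38 in KO-labelled and at 9.83, 9.64, 9.65 and 9.45 in WT positive arrays. The groups did not overlap, and the difference was 0.64 (SE 0.15, adjusted p = 0.058). Of the 10 regulators, 1 passed in 5 of the alternative settings. All 9 megakaryocyte markers measured were lower on every KO-labelled than on every WT positive array, against 4.81% of all genes. Their median was -0.76, and none of the 9 passed the threshold. The list means were 8.49 to 8.88 in KO-labelled and 9.31 to 9.57 in WT arrays. Of 14 macrophage markers, 8 had positive differences and 1, Vsig4, passed, against 1.02% of all genes. Vsig4 averaged 4.35 in KO-labelled and 5.56 in WT positive arrays, a difference of -1.21 (adjusted p = 0.00049, limma). The part of either cell type in the values of the enzymes was not tested.

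**Figure D4:**
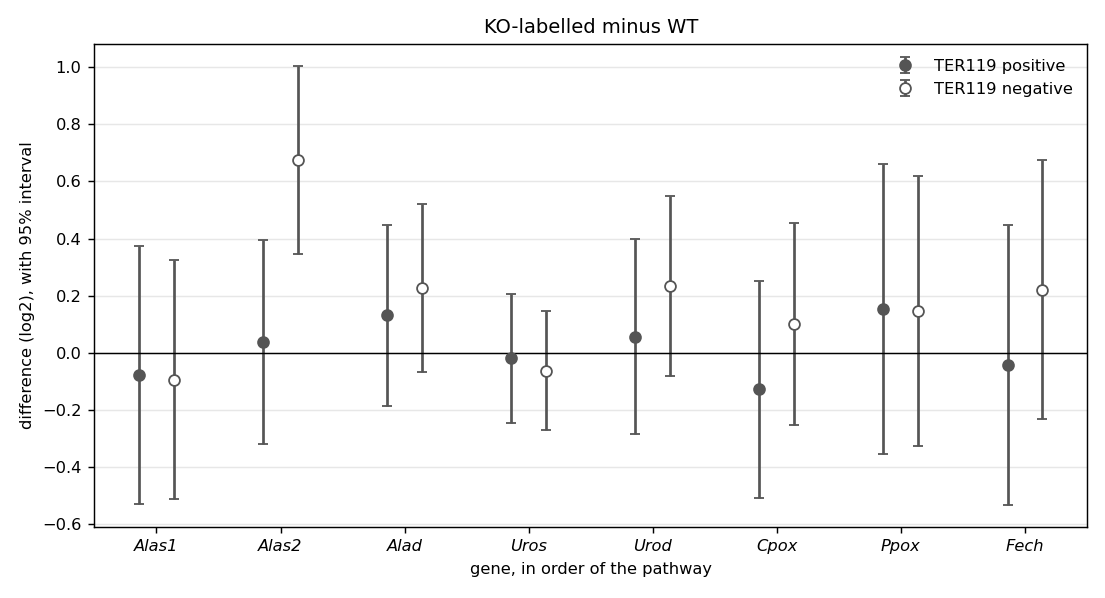
KO-labelled minus WT difference on the log2 scale for each enzyme in TER119 positive (filled) and TER119 negative (open) cells, with the 95% interval from the limma fit. The interval excludes 0 for Alas2 in TER119 negative cells, at 0.35 to 1.005, and includes 0 for all others; no adjusted p was under 0.05.

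Within TER119 negative cells, KO-labelled against WT, again none of the 8 enzymes passed the threshold, against 0.0853% of all genes, and 1 of 8, Alas2, had an unadjusted p under 0.05, against 7.56% of all genes. Alas2 averaged 7.77 ± 0.40 in KO-labelled and 7.10 ± 0.21 in WT arrays (SD, n = 4 each). The lowest KO-labelled array, at 7.29, lay just above the highest WT array, at 7.27, so that the groups did not overlap. The same held for 1.22% of all genes with the KO-labelled arrays higher. The difference was 0.68 (SE 0.16, 95% interval 0.35 to 1.005, 1.6-fold), with an adjusted p of 0.23 from limma, which misses the threshold. The SE and interval also rest on the positive arrays, in which Alas2 varied less (SD 0.06 in KO-labelled and 0.08 in WT arrays). A larger difference in either direction was found for 0.406% of genes.

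The size of that difference changed as arrays were left out. Leaving out each array gave 0.55 to 0.83. The highest value, without KO-labelled replicate 1, was the only one past the threshold (adjusted p = 0.023, limma), and without the 3 arrays that stood apart it was 0.43 (adjusted p = 0.9999). With sex as a factor it was 0.65 (adjusted p = 0.78), in a fit that also drew on the positive arrays for the sex effect. Among the negative arrays, KO-labelled ones were 1 male and 3 female, and the 4 WT ones were all male. Sex and genotype can thus hardly be told apart there, and the part of sex in the Alas2 difference was not tested within negative cells. The only male KO-labelled negative array, replicate 2, stood at 7.60, and the WT arrays reached 7.27. A single array cannot separate sex from genotype. All 13 late erythroid markers measured had a positive KO-labelled minus WT difference in TER119 negative cells, with a median of 0.35, and all 20 hepatocyte-lineage markers a negative one, with a median of -0.82. The 12 neutrophil precursor markers and the 9 megakaryocyte markers were all negative too, with medians of -0.34 and -0.24. Over all 19938 genes tested, 9219 had a positive difference. None of the genes of these 4 marker lists passed the threshold. With the hepatocyte-lineage mean as a covariate the Alas2 difference was 0.59 (adjusted p = 1). The part of the late erythroid, neutrophil precursor and megakaryocyte markers in it was not tested.

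The other enzymes in TER119 negative cells differed by -0.09 for Alas1 (SE 0.20), 0.23 for Alad (SE 0.14), -0.06 for Uros (SE 0.10), 0.24 for Urod (SE 0.15), 0.10 for Cpox (SE 0.17), 0.15 for Ppox (SE 0.22) and 0.22 for Fech (SE 0.21). Their arrays overlapped, and the adjusted p-values were 0.68 to 0.87. The median over the 8 enzymes was 0.18 against -0.02 for all genes. It turned to -0.13 with the hepatocyte-lineage mean as a covariate and to -0.02 without the 3 arrays that stood apart. None of the 53 genes of the 4 pathway lists passed. The 24 supply genes all had positive differences, with a median of 0.22, where 9219 of 19938 genes did. This count was not repeated with the covariate or without the 3 arrays that stood apart. Of the 53 genes, Blvrb, biliverdin reductase B, was nearest the threshold. It stood at 8.60, 8.69, 8.77 and 8.80 in KO-labelled and 8.08, 8.09, 8.39 and 8.48 in WT arrays. The groups did not overlap, and the difference was 0.45 (SE 0.11, adjusted p = 0.31). Slc25a38, the glycine carrier, differed by 0.61 (SE 0.20, adjusted p = 0.62), with overlapping arrays.

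The KO effects in the fractions were compared by an interaction term. None of the 8 enzymes passed in limma, against 0.436% of all genes, and 1 of 8, Alas2, had an unadjusted p under 0.05, against 4.27% of all genes. For Alas2 the KO effect in positive cells minus that in negative cells was -0.64 (SE 0.23, 95% interval -1.12 to -0.15), with an adjusted p of 0.83. The other 7 lay between -0.26 for Fech and 0.04 for Uros.

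Among the TER119 negative arrays the enzymes also varied within each genotype, with SDs of 0.11 to 0.57. Over the 8 arrays of both genotypes together, the range was 0.43 for Uros, 0.77 for Cpox, 0.80 for Alad and 0.83 for Urod. It was 1.01 for Alas1, 1.19 for Ppox, 1.27 for Fech and 1.33 for Alas2. These ranges also hold any difference between the genotypes. In 6 of the 8 genes the 3 arrays that stood apart were all below the other 5, and in 7 of 8 the lowest array was 1 of those 3. KO-labelled replicate 3 was the highest array for 5 of the 8. The 3 arrays were picked by the first principal component of all probe sets, so such a split is partly built in. The shares of all genes with these orders were not counted, so the counts cannot be read as particular to the enzymes. The late erythroid list mean stood at 8.10, 8.55, 8.86 and 8.24 in KO-labelled and 8.49, 7.85, 8.25 and 7.62 in WT arrays, highest in KO-labelled replicate 3 and lowest in WT replicate 4. KO-labelled replicate 4, 1 of the 3 arrays that stood apart, lay above KO-labelled replicate 1 in it. The hepatocyte-lineage mean was 6.62, 5.88, 5.62 and 7.10 in KO-labelled and 5.78, 6.97, 7.45 and 8.08 in WT arrays, lowest in KO-labelled replicate 3 and highest in WT replicate 4. The part of either cell type in the spread of the enzymes was not tested.

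**Figure D5:**
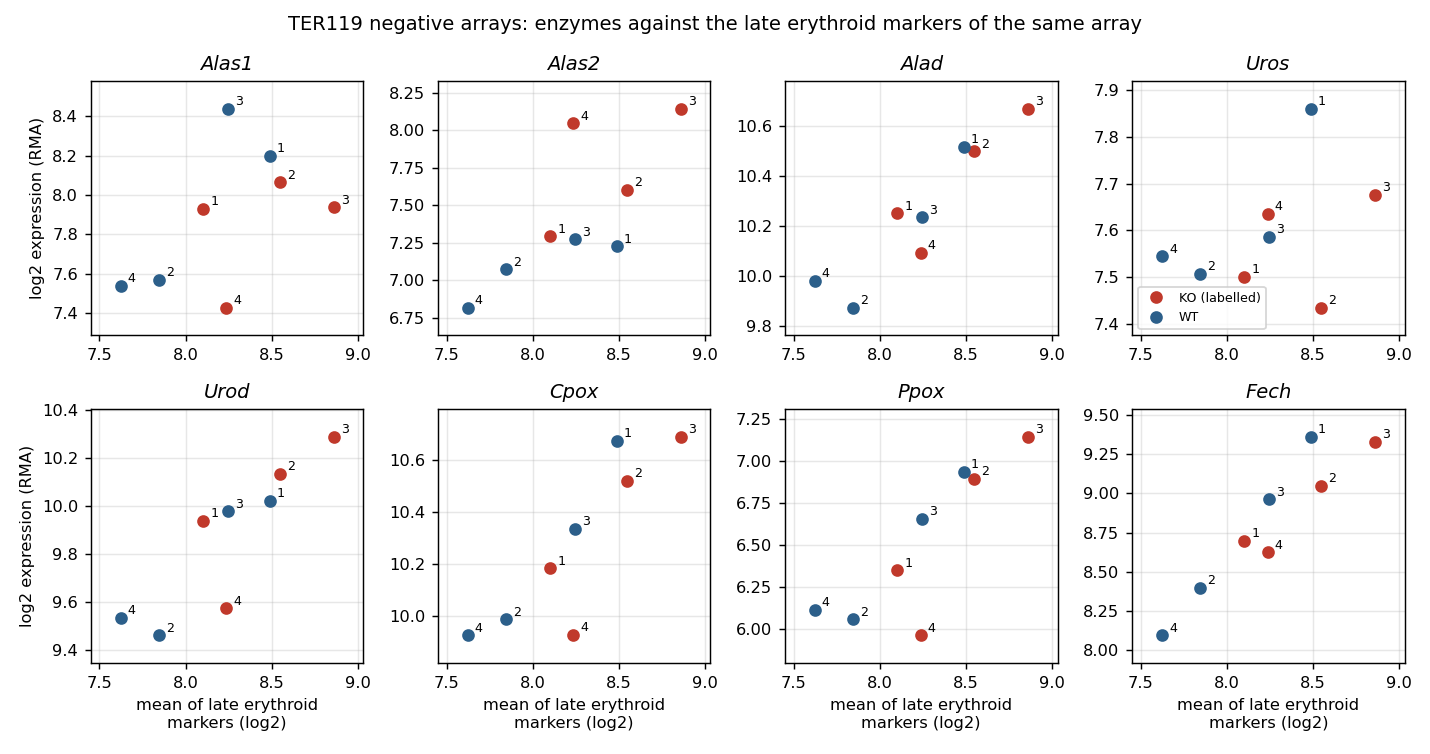
Log2 expression of each enzyme on the 8 TER119 negative arrays (y axis) against the mean of the 13 late erythroid markers on the same array (x axis, log2); numbers are replicate numbers. WT replicates 2 and 4, at 7.85 and 7.62 on the x axis, are low for most enzymes, and KO-labelled replicate 3, at 8.86, is the highest array for 5 of 8.

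The genes whose pattern was most like Alas2 over the 15 arrays were Slc4a1 (Pearson r = 0.999), Slc6a9 (0.9987), Trim56 (0.9974), Epb42 (0.9974) and Rab5a (0.997). Those most like Alas1 were Arhgap26 (0.9842), Usp11 (0.9838), Mfsd1 (0.9807), Macroh2a1 (0.9803) and Prkci (0.98). Slc6a9 encodes a glycine transporter of the cell membrane, and Slc4a1 and Epb42 encode proteins of the red cell membrane. These values describe the 15 arrays and rest mostly on the gap between the fractions, which all points share.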

How the data were processed

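Expression was measured on 15 Affymetrix MoGene 1.0 ST arrays. The authors deposited 1 log2 value for each probe set and array. Per the submitters' processing notes, these log2 values were made with RMA and Partek, and the sources used here give no version, role or genome build. RMA compresses differences between dim signals, and the table holds no detection calls. The values lay between 2.91 and 14.26, with array medians of 5.28 to 5.43. Of 35399 probe sets, 21789 had 1 gene symbol in the platform's gene table, 1621 had several and 11989 had none here. The probe set of highest mean was kept for the 999 genes with more than 1, which left 19938 genes.

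Group means of the 4 title groups were fitted to all 15 arrays in limma 3.58.1 under R 4.3.3, with no filter, block or covariate. The fit had 11 residual degrees of freedom, 4.91 prior degrees of freedom and a prior SD of 0.173. All 5 contrasts were 2-sided with Benjamini-Hochberg adjustment over all genes. The same code was tested on simulated data. No 2 arrays of a group were identical (smallest SD of a difference 0.259).

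The enzymes, gene lists and tests were chosen with earlier results of these data known. Named list genes are up to 6 of smallest p per list among those past the threshold, or the 2 of smallest p where none passed; exceptions are marked. Likeness is Pearson's r, the 5 highest genes. Alternatives were leaving out each array, only the compared arrays, a replicate block, sex, a hepatocyte-lineage covariate, leaving out 3 arrays, a filter at log2 6, centring, quantile normalization, mean of probe sets, an intensity trend with robust prior, array weights and a 1.5-fold minimum.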

Additional observations from a re-analysis of the deposited data

Results flagged for a closer look

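In WT TER119 positive cells, Cpox stood at 12.20 on replicate 1, apart from the other 3 arrays at 12.05 to 12.07. The gap was 0.854 of the group's range, above Dixon's limit for 4 arrays. It was 1 of 24 groups of 4 arrays examined over the 8 enzymes, and chance marks about 1 in 20 such groups. The difference in Cpox between KO-labelled and WT positive cells kept its sign when each array was left out, at -0.15 to -0.09.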

How the results depend on the processing

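All 8 enzymes passed the threshold between the fractions, in both genotypes, under every alternative. Between KO-labelled and WT positive cells, and for the interaction, 0 of 8 passed under every alternative. In TER119 negative cells the count was 0, except 1 (Alas2) without KO-labelled replicate 1, so that leaving out each array gave 0 to 1. Deviations of same-numbered arrays from their group means correlated at -0.25 to 0.50. Arrays of different numbers were not compared, so these values cannot settle whether the replicate numbers pair the arrays. With a replicate block, Alas2 in negative cells differed by 0.68 (adjusted p = 0.26, limma), Urod in positive cells turned to -0.017, and the block changed no call.

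Small differences changed sign. In positive cells, Uros was 0.00040 with the hepatocyte-lineage covariate and -0.061 to 0.033 when each array was left out. In negative cells, Cpox was -0.18, Ppox -0.21 and Fech -0.14 with that covariate, and Cpox -0.041 and Fech -0.14 without the 3 arrays that stood apart. Leaving out each array gave -0.23 to 0.072 for Alas1, -0.10 to 0.016 for Uros, -0.020 to 0.25 for Cpox and -0.040 to 0.35 for Ppox. The median of the enzymes in negative cells was -0.13 with the covariate and -0.02 without the 3 arrays, against 0.18. The cause was not tested.

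Of the erythroid regulators, 1 passed in positive cells with only those arrays, the covariate, quantile normalization, the intensity trend or array weights. Of the supply genes, 1, 3 and 1 passed with only those arrays, the covariate and array weights. Of the megakaryocyte markers, 8 and 9 passed with only those arrays and the covariate. Over all genes, 203 passed in positive cells, against 350 with only those arrays, 493 with the covariate and 386 with array weights. In negative cells 17 passed, against 4 with only those arrays, 7 with sex, 5 with the covariate, 8 without the 3 arrays and 31 with array weights. The interaction passed for 87, against 43 at log2 6 or above. Between the fractions, 10486 WT genes passed, against 6229 at log2 6 or above and 6925 with a 1.5-fold minimum; 9777 KO-labelled genes passed, against 6165 with the filter. Of those 203 genes, 88.7% were higher in KO-labelled cells, against 77.1% with only those arrays and 74.0% with the covariate; of the 17, 88.2% were higher, against 100% with arrays centred on their median.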
